A study of Mus musculus with 2 samples.

Results

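Complement is described here through 8 genes of mouse kidney: the C1q chain genes C1qa, C1qb and C1qc, the components C4b, C3 and Cfb, and the receptor genes C3ar1 and C5ar1. They were chosen by name, all 8 were found among the 32285 genes counted, and they were followed through cell classes defined without them. The data came from 2 droplet single-cell RNA libraries of kidneys taken on day 14 after injury by clamping of 1 renal artery and reperfusion. Both groups then received 4 injections of tamoxifen. The control library came from Cre- mice. The haplodeficient library came from Cdh5-CreERT2;Phd3f/+ mice, in which the promoter of the endothelial gene Cdh5 (VE-cadherin) drives a tamoxifen-activated Cre that acts on 1 floxed allele of Phd3, whose product PHD3 is an oxygen-dependent prolyl hydroxylase. The labels put both libraries in batch 1, and do not say how many animals went into each, their age or sex, or whether the Cre- mice carried the floxed allele. Each group is 1 library, so differences between them have no test, and every interval given in parentheses is a 95% interval for counting error alone.

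Complement is a cascade of plasma proteins in which each protease cleaves the next. C1q, built from A, B and C chains, recognises antibody and dying cells and starts the classical pathway through C4. Both C4 and factor B, encoded by Cfb, form part of convertases that cleave C3, the protein on which all pathways meet. Cleavage of C3 and of C5 releases the fragments C3a and C5a, which call leukocytes through the receptors C3aR1 and C5aR1. Liver supplies most plasma complement, but tubule cells make C3 and factor B locally after injury, and C1q comes mainly from macrophages.

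All 8 genes lie on the minus strand in GENCODE M21 on GRCm38. C3 (ENSMUSG00000024164) spans 57203970 to 57228136 of chromosome 17, and C4b (ENSMUSG00000073418, 34728380 to 34743882) and Cfb (ENSMUSG00000090231, 34856374 to 34862518) lie on the same chromosome. C1qb (ENSMUSG00000036905), C1qc (ENSMUSG00000036896) and C1qa (ENSMUSG00000036887) lie within 18675 bases of chromosome 4, from 136880129 to 136898803. C3ar1 (ENSMUSG00000040552) spans 122847138 to 122856161 of chromosome 6 and C5ar1 (ENSMUSG00000049130) 16246743 to 16259540 of chromosome 7. Upstream sequences are shown for C3, whose level differed most between the libraries in injured tubule, and for 2 C1q genes, whose levels moved together in macrophages. They were read from RefSeq promoters on GRCm38.p6, which held 5 of the 8 genes and none for C1qa, C4b or Cfb, and run 5′ to 3′ on the minus strand. Capitals mark a match to a searched motif.
C3, chr17:57228137-57228386: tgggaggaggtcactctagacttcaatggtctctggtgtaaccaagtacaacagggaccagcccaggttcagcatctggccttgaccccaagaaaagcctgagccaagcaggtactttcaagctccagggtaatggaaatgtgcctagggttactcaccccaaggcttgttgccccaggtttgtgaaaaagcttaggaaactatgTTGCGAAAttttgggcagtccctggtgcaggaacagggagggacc
C1qb, chr4:136886201-136886450: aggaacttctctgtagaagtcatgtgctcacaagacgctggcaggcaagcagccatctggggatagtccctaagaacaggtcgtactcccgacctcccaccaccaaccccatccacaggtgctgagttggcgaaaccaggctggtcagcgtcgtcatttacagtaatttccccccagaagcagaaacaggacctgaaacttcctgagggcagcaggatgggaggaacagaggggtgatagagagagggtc
C1qc, chr4:136893066-136893164: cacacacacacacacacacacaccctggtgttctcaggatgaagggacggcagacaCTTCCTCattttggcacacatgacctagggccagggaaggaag
In the 250 bases before each start, 5 motifs were searched on both strands. The C3 stretch held 1 match to TTGCNNAA, a C/EBP motif, beginning 45 bases before the RefSeq start, and 9.56% of the 32851 promoter windows of that length held this motif. The C1qc stretch held 1 match to GAGGAAG, a PU.1 motif, on the opposite strand at 194 bases before the RefSeq start, against 10.6% of all windows. The C1qc sequence shown is cut to 99 bases where the GENCODE gene begins, and the RefSeq start lies downstream of its end. No match to the interferon-stimulated response element (in 2.98% of windows), to TTCNNNGAA, a gamma-activated STAT site (7.02%), or to the NF-kappaB motif (1.21%) lay in the windows of the 5 genes, which says only that these letters are not there.

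The libraries held 134190236 (control) and 114668145 (haplodeficient) counts of unique molecular identifiers (UMIs), of which 8737 and 9222 cells were kept, at medians of 8796 and 5482.5 UMIs per cell. The median mitochondrial share was 10.1% and 2.69%, and 28 cell barcodes occurred in both libraries. Cell classes were rebuilt from clusters and carry the suffix -like, since they were not taken from the authors, and 11.2% and 13.6% of cells stayed unnamed. The classes compared were injured tubule-like (681 control and 350 haplodeficient cells), fibroblast-like (113 and 118) and pericyte or smooth muscle-like cells (192 and 272), which together stand for mesenchyme, and macrophage-like cells (786 and 1382). Of the marker lists, 6 of 10 genes passed in injured tubule-like, 10 of 10 in fibroblast-like, 11 of 11 in pericyte or smooth muscle-like and 12 of 13 in macrophage-like cells. Egln3, the gene that encodes PHD3, stood at 23.7 and 23.6 CPM in endothelial-like cells on 44 and 101 UMIs. The labels do not say which exons are floxed, so this is no check of them. Levels are UMIs of a gene summed over the cells of a class and scaled to CPM over all UMIs of those cells, and ratios are haplodeficient over control. A gene was called higher or lower where the log2 ratio after adding 5 CPM was at least 1 in size and the Poisson intervals did not overlap, among eligible genes, which needed 30 UMIs or more and an average of 50 CPM or more over the libraries.

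C3 was highest in injured tubule in both libraries and was lower there in the haplodeficient library. The control level in injured tubule-like cells was 1682 CPM (1658 to 1706), from 19280 UMIs. The haplodeficient level was 722 CPM (701 to 744), from 4498 UMIs. The intervals lay far apart, the ratio was 0.429 (0.416 to 0.444), and C3 was called lower. In this class 0.378% of 3438 eligible genes were called lower and 0.64% in either direction. C3 had the 6th lowest ratio of these genes. Only C3 and Cfb of the 8 members passed the filter on low values there, and C3 was the 1 called.

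**Figure D1:**
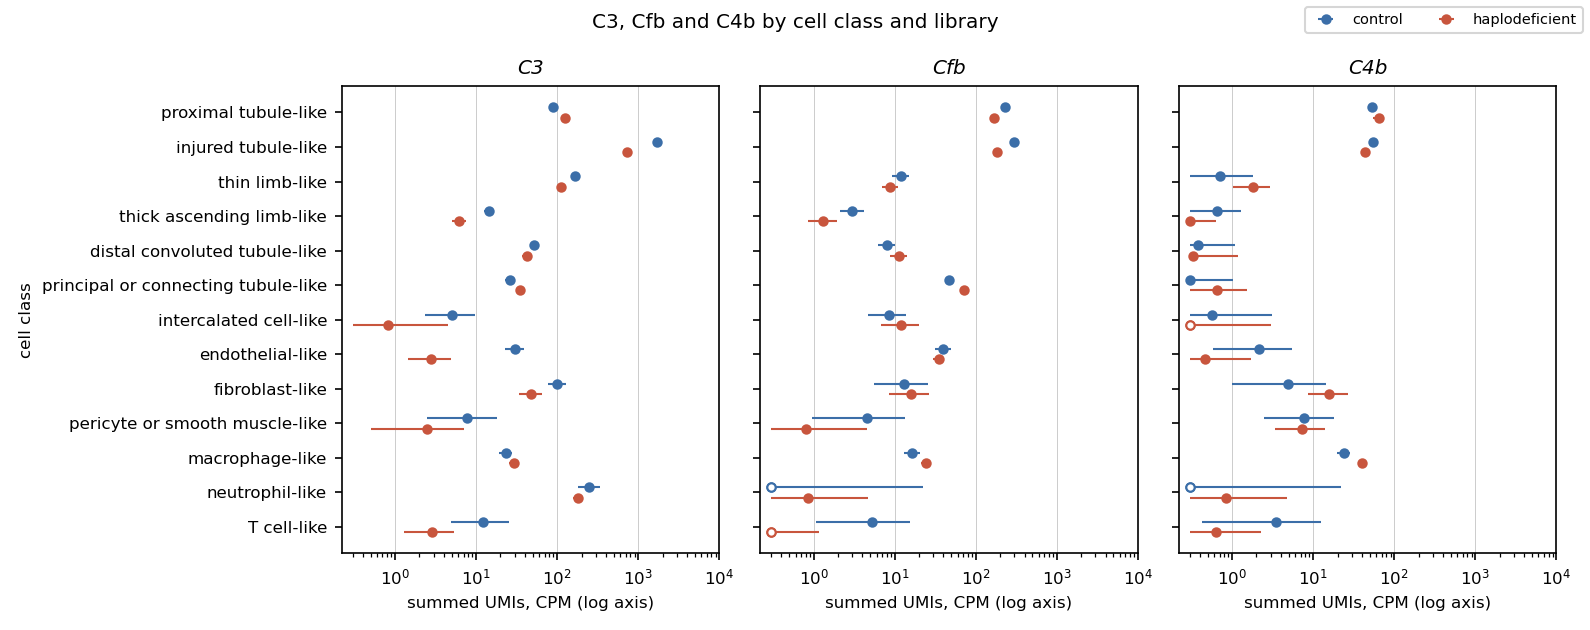
Levels of C3, Cfb and C4b (x axis, summed UMIs in CPM, log axis) in each cell class with at least 100 cells in both libraries (y axis), with bars for the exact Poisson 95% interval. Filled points at the left edge lie below 0.3 CPM and hollow points stand for 0 UMIs. C3 stands highest in injured tubule-like cells in both libraries, at 1682 CPM (control) and 722 CPM (haplodeficient), and Cfb and C4b are highest in the 2 classes at the top.

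The lower C3 level was spread over the injured tubule-like class rather than held by a few cells. At a finer resolution, a subset led by Havcr1, the gene of kidney injury molecule 1, stood at 1861 CPM (control, 412 cells) and 812 CPM (haplodeficient, 205 cells). A subset led by Cpn1, which encodes the catalytic chain of carboxypeptidase N, stood at 1522 and 667 CPM in 208 and 106 cells. A small subset led by Snhg11, of 52 and 34 cells, stood at 327 and 72.8 CPM. C3 was thus lower in the haplodeficient library in each of the 3 subsets, whose shares of the class were alike, at 60.5% and 58.6%, 30.5% and 30.3%, and 7.64% and 9.71%. Havcr1 itself stood at 1015 and 579 CPM in the first subset. It was far lower in the Cpn1-led subset, at 184 and 176 CPM, and in the Snhg11-led subset, at 52.0 and 8.57 CPM. The summed level of the 10 injured tubule markers in the whole class was 3009 and 2722 CPM. That of the 17 proximal tubule markers was 9087 and 8422 CPM. A second way of finding injured cells, any tubule cell with a Havcr1 UMI among 1000 drawn, gave 1437 CPM in 309 control and 753 CPM in 110 haplodeficient cells.

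Per cell, both the share of cells with a C3 UMI and the number of C3 UMIs were lower in the haplodeficient library. A share at a fixed depth falls with the level, so it does not count cells that express C3. After each cell was thinned to 1000 UMIs, a C3 UMI was found in 59.6% (55.7 to 63.3) of 668 control injured tubule-like cells. The share was 36.8% (31.7 to 42.1) of 348 haplodeficient cells, and without thinning the shares were 87.2% and 73.1%. Among cells with a Havcr1 UMI of the 1000, the C3 shares were close, at 68.0% (61.1 to 74.4) and 63.4% (51.1 to 74.5). Among cells without one they were 56.0% (51.4 to 60.5) and 30.0% (24.6 to 35.7). Mean C3 UMIs of 1000 were 1.88 and 1.14 with a Havcr1 UMI and 1.43 and 0.625 without. Cells with 5 or more C3 UMIs among 1000 made up 7.78% and 3.16%. In thick ascending limb-like cells, where free RNA was expected to give 100% (control) and 61.3% (haplodeficient) of C3 UMIs, the thinned shares were 1.44% and 0.902%. The median unthinned depth was 13100 and 12983.5 UMIs in injured tubule-like cells, and 12068.5 and 11051 UMIs in thick ascending limb-like cells.

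**Figure D2:**
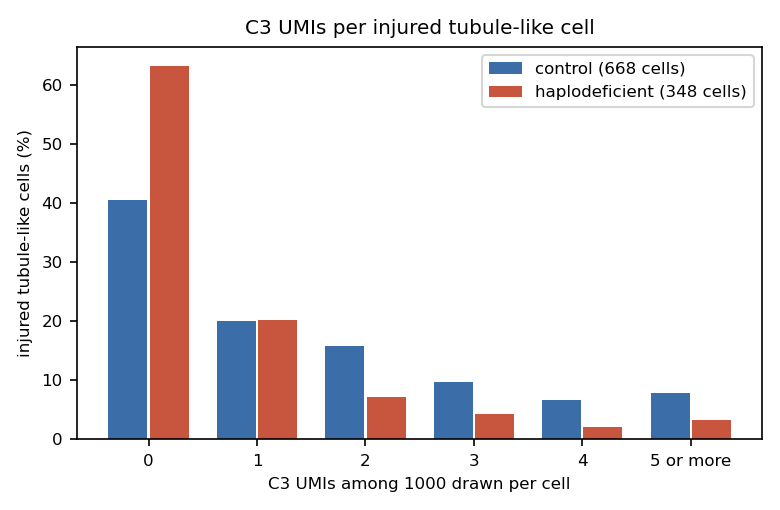
Share of injured tubule-like cells (y axis, percent of cells) by the number of C3 UMIs among 1000 UMIs drawn per cell (x axis), in 668 control and 348 haplodeficient cells. Cells without a C3 UMI make up 40.4% of the control and 63.2% of the haplodeficient cells, and every bar from 2 UMIs up is lower in the haplodeficient library.

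Injured tubule-like cells held 74.5% of all control C3 UMIs in cells and 52.0% of the haplodeficient ones. By level, neutrophil-like cells came next among the named classes with at least 100 cells per library. They had 41 control UMIs at 248 CPM (178 to 337) and 214 haplodeficient UMIs at 181 CPM (158 to 207). Their ratio was 0.729 (0.520 to 1.05), with an interval that includes 1. Thin limb-like cells stood at 165 CPM (control) and 110 CPM (haplodeficient), a ratio of 0.669 (0.611 to 0.732). In the haplodeficient library the proximal tubule-like level of 125 CPM (112 to 140) and the thin limb-like level overlapped. Monocyte-like cells, of which the control library had 52, stood at 166 CPM (118 to 227) and 176 CPM (157 to 196). Macrophage-like cells held little C3, at 23.3 and 29.0 CPM, and 48.2% (control) and 10.6% (haplodeficient) of those UMIs were expected from free RNA. In endothelial-like cells C3 stood at 30.1 CPM on 56 UMIs, 40 of them in 1 cell, and at 2.81 CPM on 12 UMIs. Distal convoluted tubule-like cells stood at 51.3 and 42.0 CPM and principal or connecting tubule-like cells at 26.1 and 35.1 CPM.

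In proximal tubule-like cells C3 ran the other way in part. Proximal tubule-like cells had a control level of 89.3 CPM (86.2 to 92.4) and a haplodeficient level of 125 CPM (112 to 140), with a ratio of 1.40 (1.25 to 1.58), short of the size rule. On the log2 scale with 5 CPM added, the C3 difference was 0.47, beside a median of 0.18 over all 2938 eligible genes of the class. The class held 2922 control and 293 haplodeficient cells, at median mitochondrial shares of 23.2% and 7.32%, and different clusters made up most of it in each library. Control cells lay mainly in clusters led by Spp2 and Slc6a19 (918 cells), Slc7a13 (718), Spp2 and Slc34a3 (688) and Kap (515), and haplodeficient cells in those led by Spp2 and Slc34a3 (145) and Spp2 and Slc6a19 (81). In the cluster led by Spp2 and Slc6a19 the ratio was 1.42 (1.21 to 1.67), and in that led by Spp2 and Slc34a3 it was 1.86 (1.52 to 2.27). CPM counts mitochondrial UMIs, so the class and cluster ratios depend in part on the mitochondrial shares. With those UMIs left out the Cfb ratio of the class was 0.642, against 0.738. Injury genes were higher in the haplodeficient cells of both clusters: Havcr1 went from 11.4 to 47.9 CPM and Vcam1 from 48.3 to 103 CPM in the first, and Havcr1 from 40.5 to 99.4 CPM and Vcam1 from 54.5 to 199 CPM in the second. Their part in the C3 values was not tested. In a cluster led by Slc7a13, a cystine transporter gene of the late proximal tubule, C3 went from 69.9 CPM to 2.10 CPM, the latter on 1 UMI in 42 cells. The class ratio fell below 1, to 0.857, when complement genes were kept among the genes used for clustering, so its direction depends on which cells are called proximal tubule. The fold of injured over proximal tubule-like cells was 18.8 (18.1 to 19.6) for control and 5.76 (5.14 to 6.48) for haplodeficient cells. It was 5.89 and 1.39 where each cell was classed by its own marker UMIs alone, and 7.69 and 2.26 at the finer resolution.

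In the named mesenchyme classes, C3 was low and uneven. Fibroblast-like cells had 62 UMIs of C3 in the control library, a level of 100.4 CPM (77.0 to 129). They had 42 UMIs in the haplodeficient library, a level of 47.4 CPM (34.2 to 64.1). C3 was called lower, at a ratio of 0.472 (0.311 to 0.710), in a class where 1.88% of 3411 eligible genes were called lower and 2.76% in either direction. The control level rested on few cells: 34 of the 62 UMIs lay in 1 cell and 58 in 3 cells, and without the top cell of each library the ratio was 0.715 and the call was lost. It was lost as well with free RNA subtracted, with doublets kept and with own-marker classes. A C3 UMI was present in 7 of 113 control and 13 of 118 haplodeficient cells without thinning. The 10 injured tubule markers summed to 1040 and 910 CPM in fibroblast-like cells, with Krt20 at 0 in both libraries and Havcr1 at 0 in the haplodeficient one, and their part in the C3 value was not tested. Pericyte or smooth muscle-like cells had 5 and 3 C3 UMIs, within what free RNA would give. With doublets kept, C3 in that class stood at 118 and 27.6 CPM and was called lower. With own-marker classes it stood at 40.2 and 88.5 CPM and was called higher. C3 was 16.7-fold (13.1 to 21.8) and 15.2-fold (11.2 to 21.1) higher in injured tubule-like than in fibroblast-like cells.

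Cfb, the gene of the protease factor B of the alternative pathway, marked the proximal and injured tubule together. In injured tubule-like cells the control level was 294 CPM (284 to 304) and the haplodeficient level 181 CPM (171 to 192). In proximal tubule-like cells the levels were 231 CPM (226 to 236) and 170 CPM (155 to 187). The haplodeficient level was lower in both classes, with ratios of 0.617 (0.576 to 0.660) and 0.738 (0.668 to 0.813) that did not reach the size rule. Cfb had the 66th lowest ratio of 3438 eligible genes in injured tubule-like cells. The 2 classes had levels whose intervals overlapped in the haplodeficient but not in the control library. With each cell classed by its own markers the injured ratio was 0.441 and was called lower. The level in injured cells then became 0.810 times the proximal tubule level in control and 0.475 times in haplodeficient cells.

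In principal or connecting tubule-like cells Cfb was higher in the haplodeficient library. They had 46.8 CPM (41.8 to 52.1) of Cfb in control and 72.0 CPM (66.1 to 78.3) in haplodeficient cells, with a ratio of 1.54 (1.34 to 1.77). Its clusters differed: a cluster led by Sprr2f, of 312 and 611 cells, stood at 72.6 and 69.8 CPM, and a cluster led by Aqp2, the water channel gene of principal cells, of 257 and 62 cells, at 18.9 and 92.8 CPM. The injury gene Lcn2 went from 1344 to 3728 CPM in the Aqp2-led cluster, and its part in the Cfb value was not tested. Thick ascending limb-like cells held little Cfb, at a ratio of 0.440 (0.252 to 0.756). Endothelial-like cells, the class that the Cre was meant to reach, stood at 39.8 CPM (31.2 to 49.9) and 35.1 CPM (29.7 to 41.2), intervals that overlap. Fibroblast-like cells had 8 and 14 Cfb UMIs and pericyte or smooth muscle-like cells 3 and 1, too few to rank. Monocyte-like cells stood at 132 CPM (89.7 to 187) and 76.4 CPM (64.3 to 90.1). C3 was found more often in cells with Cfb than in cells without it. Of control injured tubule-like cells with a Cfb UMI among 1000, 70.0% had a C3 UMI, against 56.0% of those without, and in the haplodeficient library 55.4% against 33.2%.

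C4b encodes complement C4, the substrate of C1s. Its near-identical copy C4a had 4 and 1 UMIs in injured tubule-like cells, and how reads shared by the pair were assigned is not given in the sources used here, so C4b values are uncertain to that extent. C4b stood at 54.4 CPM (50.2 to 58.9) and 44.0 CPM (38.9 to 49.5) in injured tubule-like cells and at 53.6 and 65.0 CPM in proximal tubule-like cells. Control levels in these classes overlapped. In injured tubule-like cells the ratio was 0.808 (0.699 to 0.933), with C4b just below the mean of 50 CPM asked of an eligible gene. By subset, C4b was highest in the Cpn1-led cells, at 92.1 and 79.5 CPM, and lower in the Havcr1-led cells, at 32.2 and 20.1 CPM, while C3 was higher in the Havcr1-led than in the Cpn1-led cells.

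Macrophages were the other source of C4b. Control macrophage-like cells had 113 UMIs at 23.7 CPM (19.5 to 28.5), and haplodeficient ones 404 UMIs at 39.7 CPM (35.9 to 43.8), with a ratio of 1.68 (1.36 to 2.08). Free RNA was expected to give 5.09% and 1.16% of those UMIs. The level sat in a cluster led by the chemokine genes Ccl12 and Ccl8, at 40.6 and 97.0 CPM, a ratio of 2.39 (1.92 to 2.99). Cfb in that cluster stood at 20.3 and 42.2 CPM, with a ratio of 2.08 (1.51 to 2.89). In the whole class the Cfb ratio was 1.49 (1.15 to 1.95). It ran from 1.03 with complement genes kept for clustering to 2.08 with free RNA subtracted. Neither gene was eligible for a call in the whole class. Fibroblast-like cells had 3 and 14 C4b UMIs, in 2 and 12 cells, and pericyte or smooth muscle-like cells 5 and 9.

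**Figure D3:**
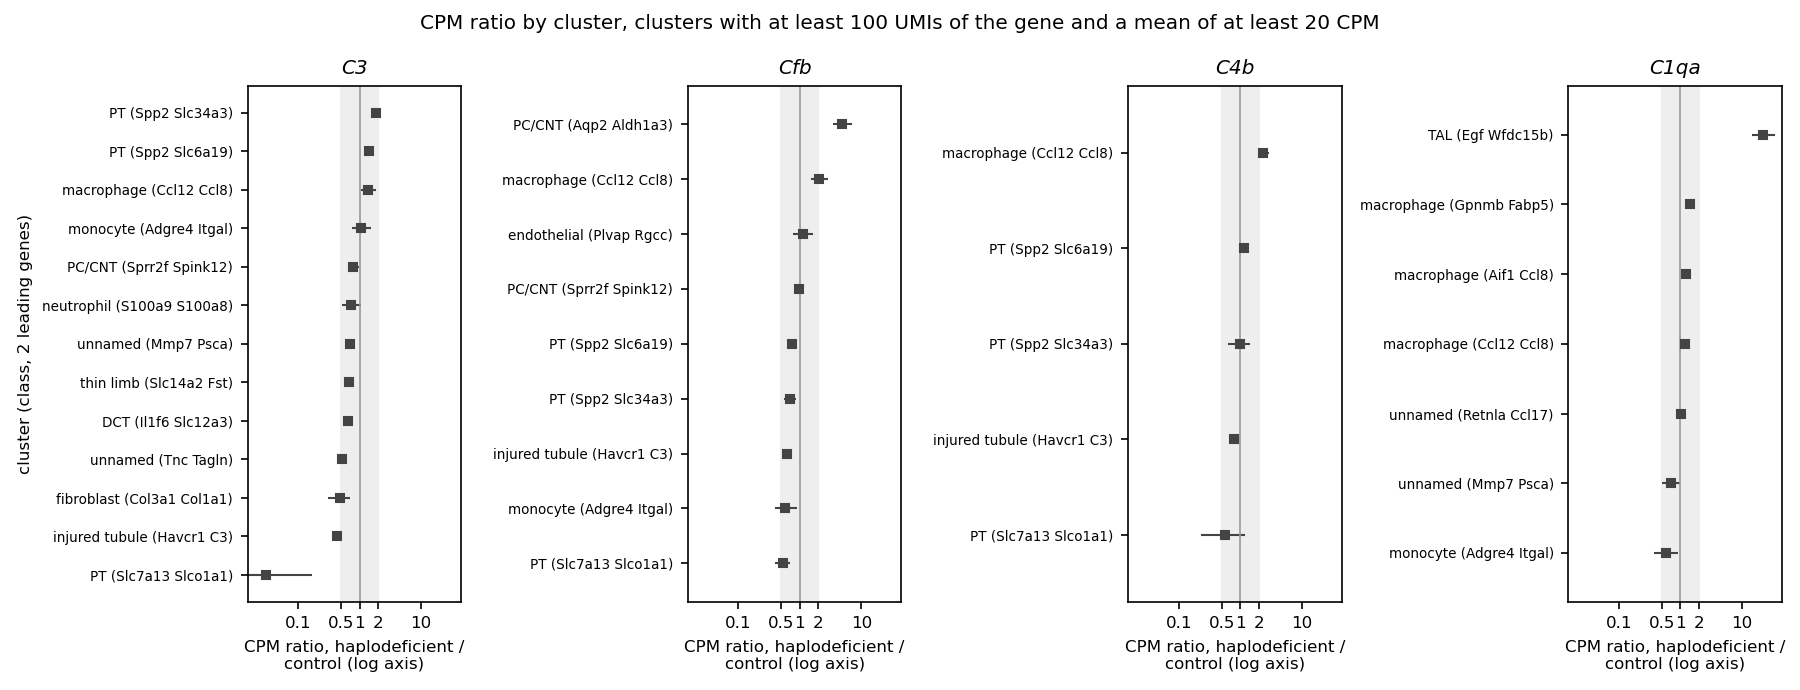
Ratio of CPM, haplodeficient over control (x axis, log axis), of C3, Cfb, C4b and C1qa in single clusters (y axis, named by class and 2 leading genes), for clusters with at least 100 UMIs of the gene and a mean of at least 20 CPM. Bars are exact 95% intervals, 1 of which runs past the left edge, and the grey band spans ratios of 0.5 to 2. PT stands for proximal tubule, TAL for thick ascending limb, DCT for distal convoluted tubule and PC/CNT for principal or connecting tubule. The C1qa point of the Egf-led TAL cluster rests on 92 UMIs in 48 haplodeficient cells. C3 lies at 0.429 in the injured tubule cluster but at 1.42 and 1.86 in the proximal tubule clusters led by Spp2.

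The C1q chain genes belonged to macrophages. In macrophage-like cells the C1qa level was 4131 CPM (4074 to 4189) for control and 4922 CPM (4879 to 4965) for haplodeficient cells. C1qb stood at 4484 CPM (4425 to 4545) and 5611 CPM (5565 to 5657), and C1qc at 2708 CPM (2661 to 2755) and 3503 CPM (3466 to 3539). All 3 were higher in the haplodeficient library beyond counting error, with close ratios of 1.19, 1.25 and 1.29, and none reached the size rule. In this class 5 of the 8 members were eligible and none was called, against 0.839% of 2741 eligible genes called in either direction. Macrophage-like cells held 88.2% of control and 92.7% of haplodeficient C1qa UMIs.

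The C1q genes were measured in nearly every macrophage-like cell. Thinned to 1000 UMIs, 95.2% of 743 control and 92.4% of 1258 haplodeficient cells had a C1qa UMI, against 97.6% and 94.6% unthinned, at median depths of 4734 and 5423 UMIs. The shares in thick ascending limb-like cells were 0.261% and 1.24% after thinning. Of cells with a C1qb UMI, 97.2% and 96.7% also had C1qa. By cluster, C1qa stood at 5020 and 5903 CPM in the Ccl12-led cells, at 4264 and 5243 CPM in the Aif1-led cells and at 3034 and 4318 CPM in cells led by Gpnmb, Fabp5 and Trem2, genes of lipid-handling macrophages. The order of the clusters was the same in both libraries, with the Gpnmb-led cells lowest and showing the highest ratio of these 3, 1.42 (1.39 to 1.46). An unnamed cluster led by Retnla and Ccl17 stood at 1457 and 1496 CPM.

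Outside macrophages C1q levels were far lower. In monocyte-like cells of the haplodeficient library C1qa stood at 63.9 CPM and C1qb at 89.4 CPM, of which 24.4% and 24.8% were expected from free RNA, and all 26 control C1qa UMIs lay in 1 cell. C1qa stood at 4.88 CPM (56 UMIs) and 8.51 CPM (53 UMIs) in injured tubule-like cells. In fibroblast-like cells C1qb stood at 79.4 CPM (49 UMIs) and 37.3 CPM (33 UMIs), of which 45 of the 49 control UMIs lay in 1 cell. Without the top cell of each library the C1qb levels were 6.81 and 26.2 CPM, which turns the direction. The 13 macrophage markers summed to 1899 and 1495 CPM in fibroblast-like cells, with Cd163 at 0 in both libraries, against 40998 and 44367 CPM in macrophage-like cells, and their part in the C1qb value was not tested. In T cell-like cells C1qb was called lower, at 91.0 and 10.1 CPM, in a class where 2.49% of 3128 eligible genes were called in either direction, and 47 of its 52 control UMIs lay in 1 cell. Without the top cells the T cell-like levels were 8.85 and 7.26 CPM.

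**Figure D4:**
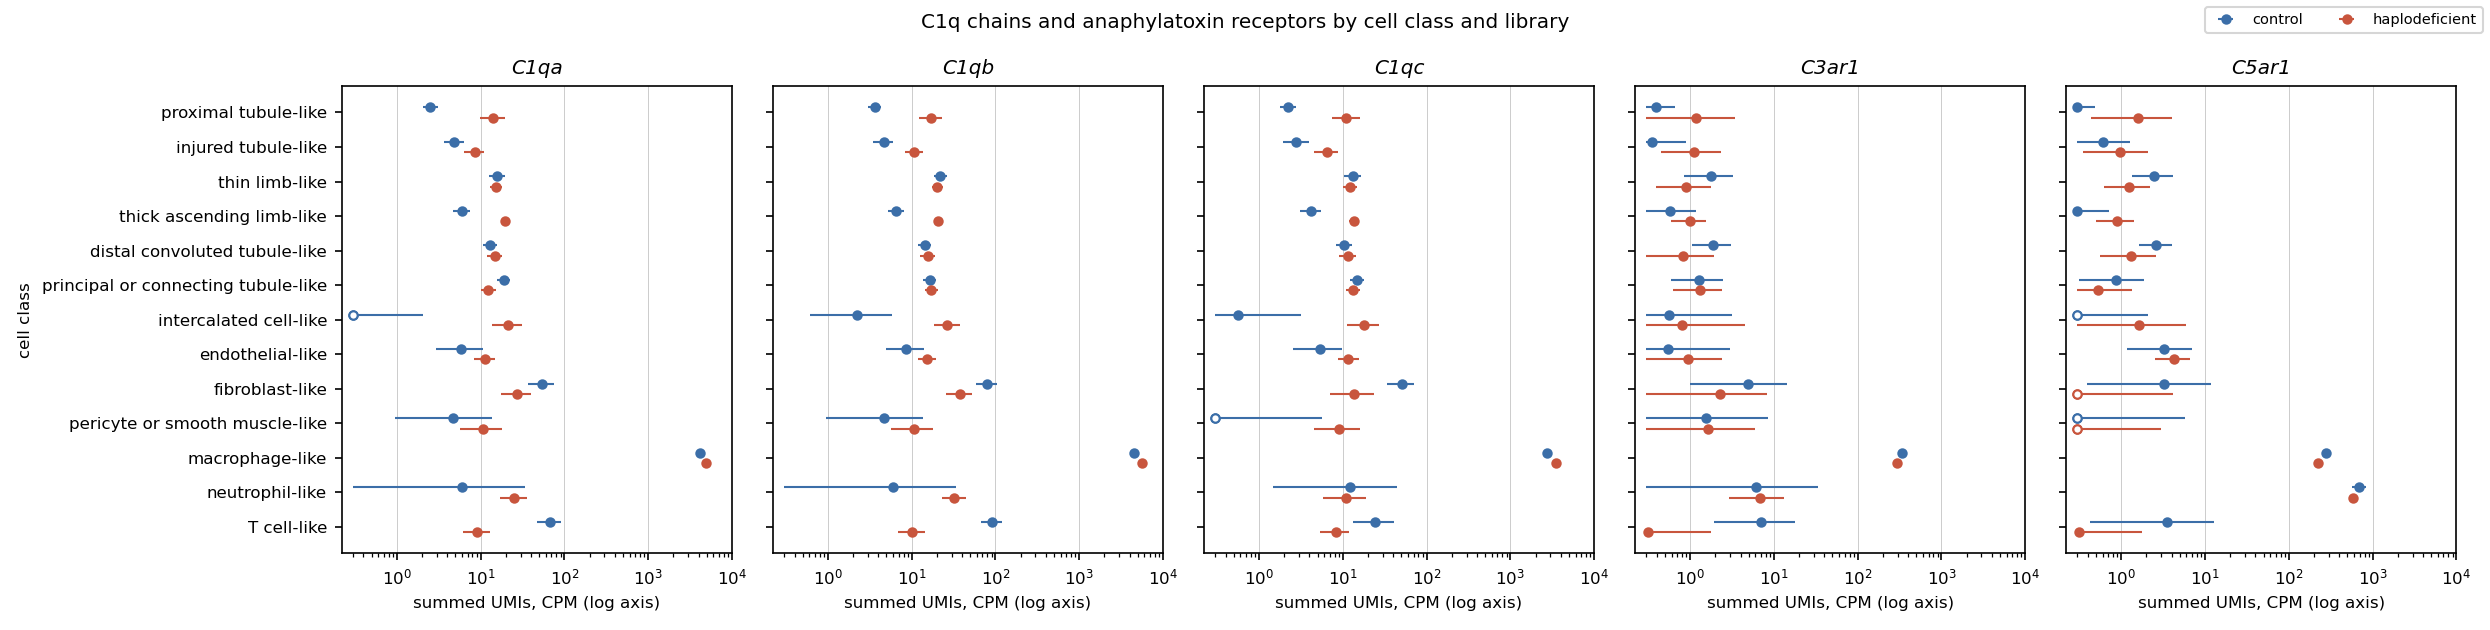
Levels of C1qa, C1qb, C1qc, C3ar1 and C5ar1 (x axis, summed UMIs in CPM, log axis) in each cell class with at least 100 cells in both libraries (y axis), with exact Poisson 95% intervals. Filled points at the left edge lie below 0.3 CPM and hollow points stand for 0 UMIs. The C1q genes and C3ar1 stand apart in macrophage-like cells, and C5ar1 in macrophage-like and neutrophil-like cells, at 274 and 691 CPM in the control library.

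C3ar1 was a gene of macrophages, while C5ar1 was found in neutrophils, macrophages and monocytes. C3ar1, the receptor of C3a, stood at 338 CPM (321 to 355) and 298 CPM (287 to 309) in macrophage-like cells, a ratio of 0.882 (0.830 to 0.937), and below 10 CPM in any other class with at least 100 cells per library. C5ar1, the receptor of C5a, was highest in neutrophil-like cells, at 691 CPM (570 to 830) and 588 CPM (546 to 634), intervals that overlap. Macrophage-like cells followed for C5ar1 at 274 CPM (260 to 290) and 224 CPM (215 to 233), a ratio of 0.816 (0.762 to 0.874). In monocyte-like cells, 52 and 372 in number, C5ar1 stood at 179 and 146 CPM on 42 and 269 UMIs. Both receptor genes were thus slightly lower in haplodeficient macrophage-like cells, opposite in sign to the C1q genes. The 2 larger macrophage clusters differed in these genes. In the Gpnmb-led cells C3ar1 stood at 231 and 241 CPM and C5ar1 at 160 and 167 CPM, while the Ccl12-led cells stood at 428 and 406 CPM for C3ar1 and at 372 and 330 CPM for C5ar1. With each cluster weighted in both libraries by its mean share of the class over the 2 libraries, the ratios were 0.953 and 0.913. The Gpnmb-led cells numbered 177 and 467 and the Ccl12-led cells 561 and 717.

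Macrophage-like cells held 87.5% and 91.5% of C3ar1 UMIs. Of C5ar1 UMIs they held 78.6% and 65.8%, and neutrophil-like cells, which numbered 103 (control) and 617 (haplodeficient), held 6.84% and 20.1%. Monocyte-like cells held 2.52% and 7.77% of C5ar1 UMIs. In injured tubule-like cells, where C3 was highest, C3ar1 had 4 and 7 UMIs and C5ar1 7 and 6, and in pericyte or smooth muscle-like cells C5ar1 had none. Among macrophage-like cells thinned to 1000 UMIs, 32.8% of control cells with a C5ar1 UMI also had C3ar1 and 31.2% of those without it. The haplodeficient shares were 31.0% and 26.8%.

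Other complement genes were taken from lists of 52 genes, of which 50 were found in the files and Cfhr3 and Cfhr4 were not. In injured tubule-like cells 5 of the 50 were eligible and 1 was called higher, against a background of 0.262% for higher. That gene was Cpn1, whose product inactivates C3a and C5a, at 159 and 402 CPM, a ratio of 2.52 (2.38 to 2.68). Its call was lost where each cell was classed by its own marker UMIs alone. Clu, which encodes the terminal pathway inhibitor clusterin, stood at 165 and 269 CPM, and C1qbp, a mitochondrial protein that binds C1q, at 121 and 155 CPM. Cfi, the protease that degrades C3b, stood at 97.4 and 80.1 CPM and C2, the C4-bound convertase protease, at 72.5 and 69.2 CPM. The median log2 ratio of the 5 was 0.35, beside 0.03 over all eligible genes. Of genes below the filter, the membrane regulators Cr1l and Cd59a stood at 37.1 and 37.7 CPM and at 29.2 and 33.4 CPM.

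**Figure D5:**
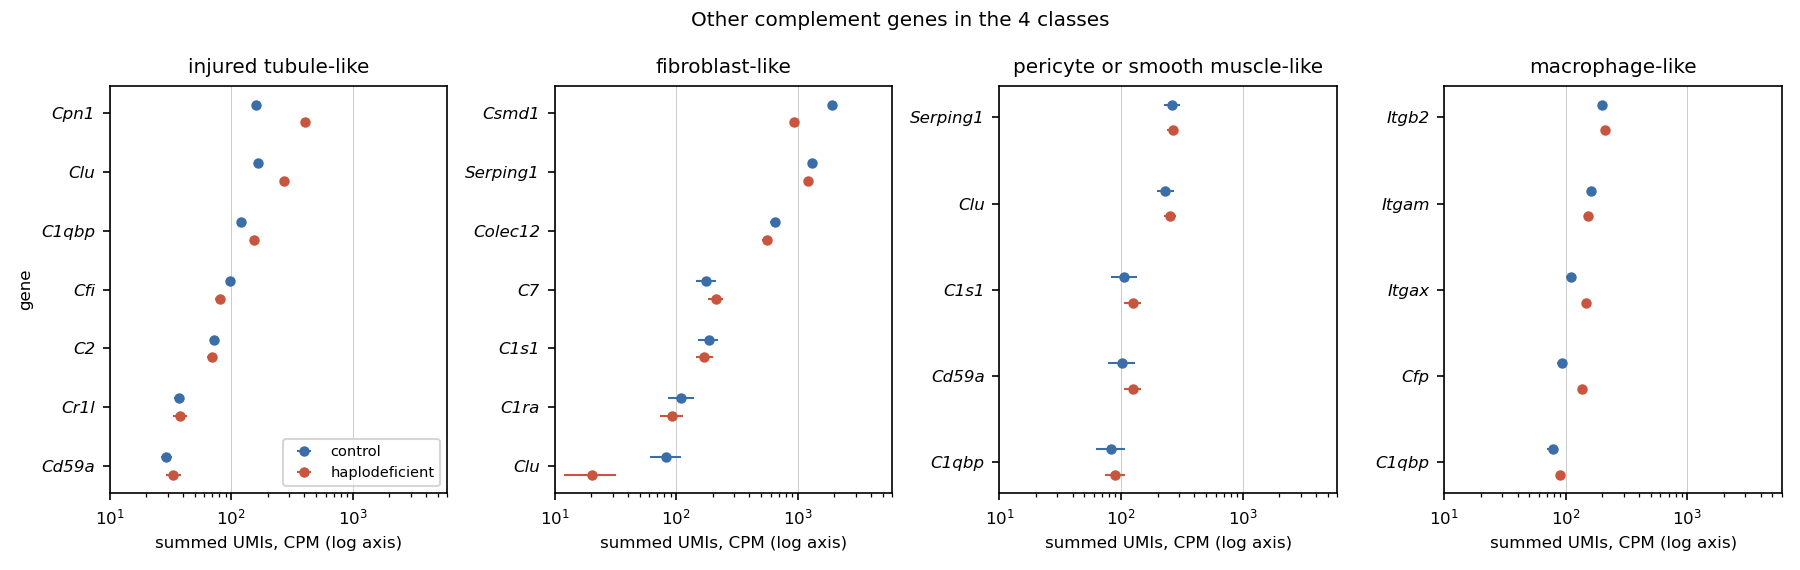
Levels (x axis, summed UMIs in CPM, log axis) of the complement genes outside the 8 that were named in injured tubule-like, fibroblast-like, pericyte or smooth muscle-like and macrophage-like cells (1 panel each, genes on the y axis), with exact Poisson 95% intervals. Cpn1 is the gene that parts most between libraries in injured tubule-like cells, at 159 and 402 CPM, and Serping1 stands at 1301 and 1221 CPM in fibroblast-like cells.

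The mesenchyme classes held several regulators and early proteases at higher levels than C3. This did not hold for all: control fibroblast-like C1ra (110 CPM) and Clu (82.6 CPM) lay within the C3 interval of 77.0 to 129 CPM. Fibroblast-like cells stood at 1301 and 1221 CPM for Serping1, the C1 inhibitor gene. Colec12, a scavenger collectin, stood at 653 and 554 CPM, C7 of the terminal pathway at 177 and 211 CPM, and the C1 protease genes C1s1 and C1ra at 185 and 171 CPM and at 110 and 92.6 CPM. The ratios of these 5 genes lay between 0.841 and 1.20, and none was called. Of 10 eligible list genes 2 were called lower: Csmd1, a large membrane regulator, at 1924 and 928 CPM, and Clu, at 82.6 and 20.3 CPM on 51 and 18 UMIs. The Clu direction turned, with a call as higher, at 253 and 774 CPM with doublets kept and at 197 and 488 CPM with each cell classed by its own markers. The Clu call as lower was also lost at 25% mitochondrial UMIs, with complement genes kept for clustering and with free RNA subtracted. The median log2 ratio of the 10 was −0.10, beside 0.03 over all eligible genes. Pericyte or smooth muscle-like cells had 8 eligible list genes and none called, against 1.04% of 3285 eligible genes in either direction, with Serping1 at 264 and 267 CPM and Clu at 232 and 255 CPM. C1s1 stood there at 107 and 125 CPM, Cd59a at 102 and 126 CPM and C1qbp at 83.3 and 89.1 CPM.

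Macrophage-like cells had 7 eligible list genes and none called. With complement genes kept for clustering, Clu was called lower in this class, at 578 and 174 CPM. The complement receptor integrin genes stood at 198 and 210 CPM (Itgb2), 161 and 153 CPM (Itgam) and 109 and 147 CPM (Itgax). Cfp, which encodes properdin, the stabiliser of the alternative convertase, stood at 92.6 and 137 CPM, a ratio of 1.47 (1.32 to 1.64). Cfp was thus higher in the haplodeficient library beyond counting error, and short of the size rule. C1qbp stood at 78.2 and 89.8 CPM, and the median log2 ratio of the 7 was 0.08.

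Across 13 classes in both libraries, 26 points in all, the genes whose log2 level followed each member most closely were found by Pearson correlation. The points share 2 libraries, so the values are descriptions. For C3 they were Cldn1, a tight junction gene (r = 0.85), Amdhd2, Gc, Pak1 and Bdh2. For Cfb they were Npl (r = 0.90), Idh1, Nus1, Qdpr and Erlin1, and for C4b Ttyh2 (r = 0.87), Npl, Gatm, Cryzl2 and Dpp7, so Npl stood in both sets. For C1qa they were Ms4a7 (r = 0.98), Aif1, Ccl8, Ly86 and Arg1, and for C3ar1 Mgl2 (r = 0.98), Ly86, St18, Cd180 and Gm35154. For C5ar1 they were Itgam (r = 0.99), a complement receptor chain gene, Pirb, Osm, Hk3 and Klra2.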

How the data were processed

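Raw UMI counts per gene and barcode were deposited for 2 kidney libraries, made by the authors with Cell Ranger 4.0, per the file headers, from Chromium 3′ kit v3.1 libraries, per the labels' protocols, with mm10 given in the submitters' processing notes. The strand setting of the counting is not given in the sources used here. The protocols mention cell hashing, and no hashtags were used here.

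The 8 genes, the lists and the tests were chosen with earlier results of these data known. Barcodes with at least 500 UMIs, 200 genes and at most 50% mitochondrial UMIs were kept (9452 and 10026), and 715 and 804 likely doublets, the top Scrublet scores at 0.8% per 1000 cells (scanpy 1.11.5), were removed. Clustering used 2000 variable genes without any complement gene, 30 principal components, 15 neighbours and Leiden resolution 1 (leidenalg 0.10.2, scikit-learn 1.9.0), and gave 38 clusters. Clusters were named from fixed markers, none a complement gene, by a rule set after the data were seen: at least 3 markers in 10% of cells at 2-fold or more. Gene coordinates came from GENCODE M21 on GRCm38.

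Intervals are exact Poisson (levels), conditional binomial (ratios and folds) and Clopper-Pearson (shares), computed with SciPy 1.17.1. They cover counting error only. The free RNA profile came from barcodes with 1 to 100 UMIs. Shares were taken after drawing 1000 UMIs per cell, which left out cells with fewer. Genes named outside the 8 were, per class, those past the size rule and up to 6 more by highest mean CPM, and the 5 genes most correlated with a member; 1 gene so chosen is not reported here. The calling scripts were tested on simulated Poisson counts of class sums, which hold no spread between cells.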

Additional observations from a re-analysis of the deposited data

Results flagged for a closer look

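Ratios of haplodeficient over control were compared over classes with at least 100 cells per library in which the gene was eligible. For 3 genes the ratio lay above 1 in some of these and below 1 in others, with counting intervals that exclude 1. These intervals treat UMIs as independent and do not cover the spread between cells. With 1 library per group these differences were not tested. The C3 ratio was 1.40 in proximal tubule-like cells but 0.429 in injured tubule-like, 0.669 in thin limb-like and 0.472 in fibroblast-like cells. The Cfb ratio was 1.54 in principal or connecting tubule-like cells but 0.738 in proximal tubule-like and 0.617 in injured tubule-like cells. The first class lay in 2 clusters in different shares, of 312 and 257 control and 611 and 62 haplodeficient cells, and the larger stood at 72.6 and 69.8 CPM. The C1qb ratio was 1.25 in macrophage-like cells but 0.470 in fibroblast-like and 0.111 in T cell-like cells, and in both of the latter most control UMIs lay in 1 cell. Without the top cell of each library C1qb stood at 6.81 and 26.2 CPM in fibroblast-like and at 8.85 and 7.26 CPM in T cell-like cells, so those ratios say little of either class.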

How the results depend on the processing

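Over 49 results, 360 values were recomputed under other choices: 257 stayed the same, 101 moved and 2 reversed. The same meant within the main interval or, for counts of calls, an equal or close count. Counts could not reverse. No paired analysis was possible because each group has 1 library. C3 in injured tubule-like cells was called lower under every choice of cells and classes tried, with ratios of 0.351 (classes from each cell's own markers) to 0.440 (doublets kept), among them 0.410 with mitochondrial UMIs left out and 0.415 without the top cell, the last 2 chosen after seeing the data. The Cfb ratio there was 0.441 with own-marker classes. The C3 ratio in fibroblast-like cells was 0.715 without the top cell. The reversed values were the C3 ratio in proximal tubule-like cells, 0.857 with complement genes kept for clustering, and the control Cfb fold of injured over proximal tubule-like cells, 0.810 with own-marker classes. With those classes the haplodeficient Cfb fold went from 1.06 to 0.475. Why these values turned was not tested.

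In macrophage-like cells the C1qa ratio was 1.22 with complement genes kept and with own-marker classes. It was 1.17 without mitochondrial UMIs and 1.23 with the same cluster weights in both libraries. Those weights gave 0.953 for C3ar1, 0.913 for C5ar1 and 2.31 for C4b, and own-marker classes gave 0.875 for C5ar1. The control C3 fold of injured over proximal tubule-like cells was 17.6 (at least 1000 UMIs per cell), 8.84 (at most 25% mitochondrial UMIs), 16.1 (doublets kept), 7.69 (resolution 2), 20.6 (complement genes kept), 5.89 (own-marker classes), 21.1 (free RNA subtracted) and 16.1 (mitochondrial UMIs left out). The haplodeficient fold was 6.72, 3.67, 2.26, 10.3 and 1.39 for at least 1000 UMIs, 25% mitochondrial UMIs, resolution 2, complement genes kept and own-marker classes. In tubule cells with a Havcr1 UMI the C3 level was 1437 and 753 CPM.

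Over the 4 classes there were 2 calls of a member as lower, both of C3 (injured tubule-like and fibroblast-like cells), and 1 with free RNA subtracted, where the fibroblast-like call was lost. That call was also lost with doublets kept and with own-marker classes. C1qb in fibroblast-like cells was called lower in addition with at least 1000 UMIs, 25% mitochondrial UMIs, complement genes kept, own-marker classes and mitochondrial UMIs left out. No member was called higher, but doublets kept gave 5 such calls, of C1qa and C1qb in injured tubule-like cells and of C1qa, C1qb and C1qc in pericyte or smooth muscle-like cells, and own-marker classes gave 1, of C3 in the latter. Of other complement genes 2 were called lower, against 1 at 25% mitochondrial UMIs, 0 with doublets kept, 1 with own-marker classes and 1 with free RNA subtracted. With complement genes kept the 2 were Csmd1 in fibroblast-like and Clu in macrophage-like cells. The 1 call as higher, of Cpn1 in injured tubule-like cells, became 3 with doublets kept, where Clu in injured tubule-like and fibroblast-like cells joined it. With own-marker classes the Cpn1 call was lost and the 2 calls were of Clu in fibroblast-like and pericyte or smooth muscle-like cells. Few UMIs limit the fibroblast-like and pericyte or smooth muscle-like values, at 617320 to 1223341 UMIs per class and library, and the control neutrophil-like and monocyte-like values.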

Other observations

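Unnamed cells also carried C3. A cluster led by Tnc, Tagln and Igfbp2 held 90 control and 281 haplodeficient cells, with Cdh11, Wt1 and Foxd1 also among its leading genes. It was in neither mesenchyme class, and stood at 455 CPM and 238 CPM for C3, a ratio of 0.522 (0.466 to 0.587). A cluster led by Mmp7, Psca and Olfm4 stood at 203 CPM and 140 CPM, a ratio of 0.689 (0.607 to 0.781). C3 was thus lower in the haplodeficient library in both, as in injured tubule-like cells. In proximal tubule-like cells Cpn1 stood at 72.7 and 306 CPM, a ratio of 4.21 (3.88 to 4.56), the 5th highest of 2938 eligible genes. That class had median mitochondrial shares of 23.2% and 7.32%, and CPM counts those UMIs. Clu, at a ratio of 1.63 in injured tubule-like cells, stood at 8017 and 12043 CPM in principal or connecting tubule-like cells.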
